A study of Arabidopsis thaliana with 4 samples.

Results

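AT5G47980 and AT5G47950 encode acyltransferases of the BAHD family and lie on chromosome 5 of Arabidopsis thaliana, at the cluster of genes that makes the triterpene thalianol. The genes were taken as the probe sets whose only annotated gene was AT5G47980 or AT5G47950, and each had 1 such probe set, measured on all 4 arrays. The 13355 genes that a probe set names alone include these 2. The pair was selected on the OsRR6ox minus wild type differences of these same arrays, so its own genotype differences are given as a description, with no test. RNA was extracted from whole, untreated Col-0 seedlings aged 10 days, of the wild type (2 arrays) and of OsRR6ox (2 arrays), and was labelled with biotin and hybridised to Affymetrix arrays. OsRR6ox over-expresses OsRR6, a rice type-A response regulator, a class of receiver-domain protein that takes part in the response to the hormone cytokinin. The submitters speak of a single overexpression line. The sources used here do not name the promoter of its transgene. A whole seedling mixes roots and shoots, and in such RNA fewer cells of a type and less RNA per cell cannot be told apart.

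Thalianol is built from oxidosqualene, the precursor that plants also use for sterols. THAS1 folds it into the triterpene scaffold, the cytochromes P450 CYP708A2 and CYP705A5 oxidise that scaffold, and BAHD enzymes, which move an acyl group from coenzyme A to an alcohol or amine, act on the oxidised products. The genes of these steps stand side by side in the genome, and in Arabidopsis they are known to be active mainly in roots, above all in the root epidermis.

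AT5G47980 was lower in OsRR6ox than in the wild type. The wild type arrays gave 8.44 and 7.70 and the OsRR6ox arrays 5.71 and 5.65 (log2 expression, replicates 1 and 2). The groups did not overlap, as for 28.0% of all probe sets that were likewise lower on every OsRR6ox array, and the lowest wild type array stood far above the higher OsRR6ox array. The means were 8.07 ± 0.53 in the wild type and 5.68 ± 0.04 in OsRR6ox (SD, n = 2 each), a difference of -2.39 with an SE of 0.37, or 5.25-fold. Among the 22746 probe sets tested, 24 had a lower difference. AT5G47980 was one of 111 probe sets that fell, 0.488% of those tested, where 1.30% passed in either direction (limma, Benjamini-Hochberg adjusted p under 0.05), and AT5G47950 was not among the latter. That call is part of how the gene was chosen and adds no support to it. The call was lost when either OsRR6ox array was left out, where the difference was -2.42 without replicate 1 and -2.36 without replicate 2. In OsRR6ox the transcript was still measured above array background, here the level under which the dimmest 25% of an array's probe sets lie, by 1.24 on the log2 scale at the least.

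AT5G47950 differed between genotypes by less than the spread between its replicates. The wild type arrays gave 6.87 and 6.26 and the OsRR6ox arrays 6.55 and 6.66 (log2 expression). Both OsRR6ox values lay between the wild type values, so the groups overlapped fully. The means were 6.56 ± 0.43 and 6.60 ± 0.08 (SD, n = 2 each), a difference of 0.04 with an SE of 0.31. In the fit across all probe sets the limma SE was 0.22, and the 95% interval built from it ran from -0.53 to 0.61. That interval is a description, and these arrays leave changes of either sign within it possible. The sign of the difference rested on single arrays, with 0.34 without wild type replicate 1, -0.26 without wild type replicate 2 and -0.02 without OsRR6ox replicate 2. On every array AT5G47950 lay above array background, by 1.75 at the least.

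**Figure D1:**
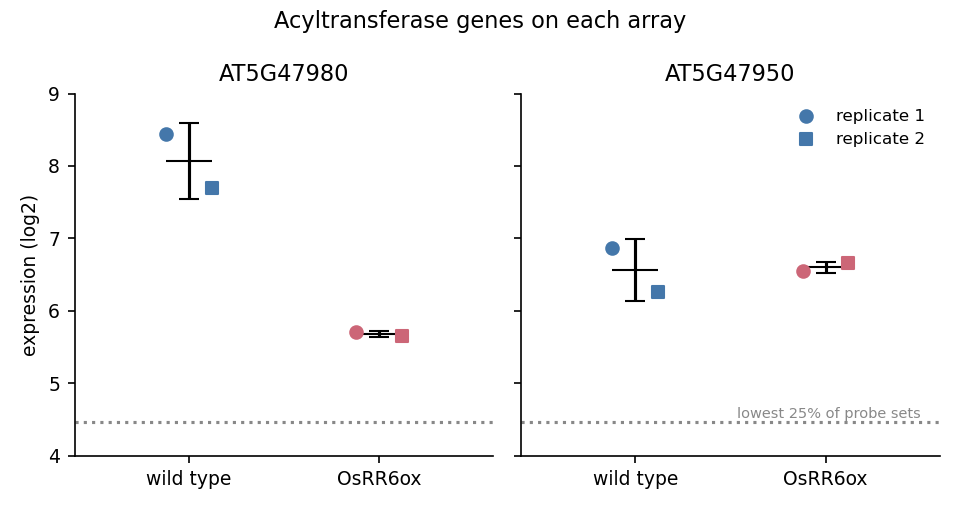
Log2 expression of AT5G47980 (left) and AT5G47950 (right) on each array, with circles for replicate 1 and squares for replicate 2, and horizontal bars with whiskers for the mean and SD of each genotype (n = 2). The dotted line is the mean over arrays of the level below which the lowest 25% of probe sets lie. The AT5G47980 values were 8.44 and 7.70 for wild type against 5.71 and 5.65 in OsRR6ox, while the AT5G47950 values of the genotypes overlapped.

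The wild type arrays differed for both acyltransferase genes, and in the same direction. Wild type replicate 1 exceeded replicate 2 by 0.75 for AT5G47980 and by 0.60 for AT5G47950. The median of this difference over all probe sets was 0.03, and 2.43% and 4.39% of probe sets had one at least as large and of the same sign as AT5G47980 and AT5G47950, respectively. The OsRR6ox arrays lay close together, with replicate 1 minus replicate 2 at 0.06 for AT5G47980 and -0.11 for AT5G47950. Since a probe set's level cannot be set against that of another, the gap between the genes has no meaning of its own, but its change between arrays has. The log2 gap, AT5G47980 minus AT5G47950, was 1.58 and 1.44 for the wild type replicates and -0.84 and -1.01 for those of OsRR6ox. It varied less between the wild type arrays (SD 0.10) than either gene alone did (SD 0.53 and 0.43). Between the OsRR6ox arrays it varied more (SD 0.12) than either gene alone did (SD 0.04 and 0.08). Between genotypes the gap differed by -2.43, which restates the differences the pair was selected on and is given as a description.

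In the reference gene order, 2 protein-coding genes separate AT5G47950 from AT5G47980. They are RABA4C, which encodes a small GTPase of membrane traffic, and AT5G47970, and neither is known to act on thalianol. On the other side AT5G47980 is followed by CYP705A5, CYP708A2 and THAS1. Of the 7 protein-coding genes from AT5G47950 to THAS1, 3 were measured under a single gene name, so the scaffold synthase and both P450 genes are not analysed here. The third measured gene was AT5G47970, between the acyltransferase genes. Its log2 expression was 7.24 and 7.32 (wild type) and 7.21 and 7.20 (OsRR6ox). Its difference of -0.07 did not pass (limma adjusted p = 0.846), and unlike the acyltransferase genes it was not higher in wild type replicate 1. The gene next to THAS1 on its far side, AT5G48020, differed by 0.06 (limma adjusted p = 0.910).

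The region was then described over 15 protein-coding genes on each side of this stretch. Apart from the acyltransferase genes, 16 of 35 genes were measured, of which 1 rose and 0 fell, where 0.813% and 0.488% of all probe sets tested did so (limma adjusted p under 0.05). Before adjustment 3 of the 16 had a p under 0.05, as had 3407 of all 22746 probe sets. Of the 16 genes, 13 differed by less than 0.5 in either direction, and their median was 0.0009 against -0.04 over all probe sets. The arrays of the genotypes did not overlap for 11 of the 16 (68.8%), as for 46.1% of all probe sets. AT5G47940, the neighbour of AT5G47950 on its other side, gave 4.96 and 5.17 (wild type) and 5.63 and 5.69 (OsRR6ox), and its difference of 0.59 did not pass (limma adjusted p = 0.143). Wild type replicate 1 was higher than replicate 2 for 5 of the 16, with a median difference of -0.12. It was higher for both acyltransferase genes, and for 12491 of all 22746 probe sets. The lowest of the 16 differences was -0.21, of AT5G47830.

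The neighbour that rose was AT5G48110, which encodes a terpene synthase and lies 9 genes beyond THAS1. Wild type replicate 1 was just above array background at 4.57 and replicate 2 below it at 4.42, and those of OsRR6ox gave 5.83 and 6.28 (log2 expression). The OsRR6ox arrays were both higher, by a mean of 1.56 with a limma SE of 0.19, or 2.95-fold (limma adjusted p = 0.0379). The size of this difference is uncertain given the dim wild type arrays. The call was lost with any single array left out, where the limma adjusted p ranged from 0.0541 to 0.167.

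**Figure D2:**
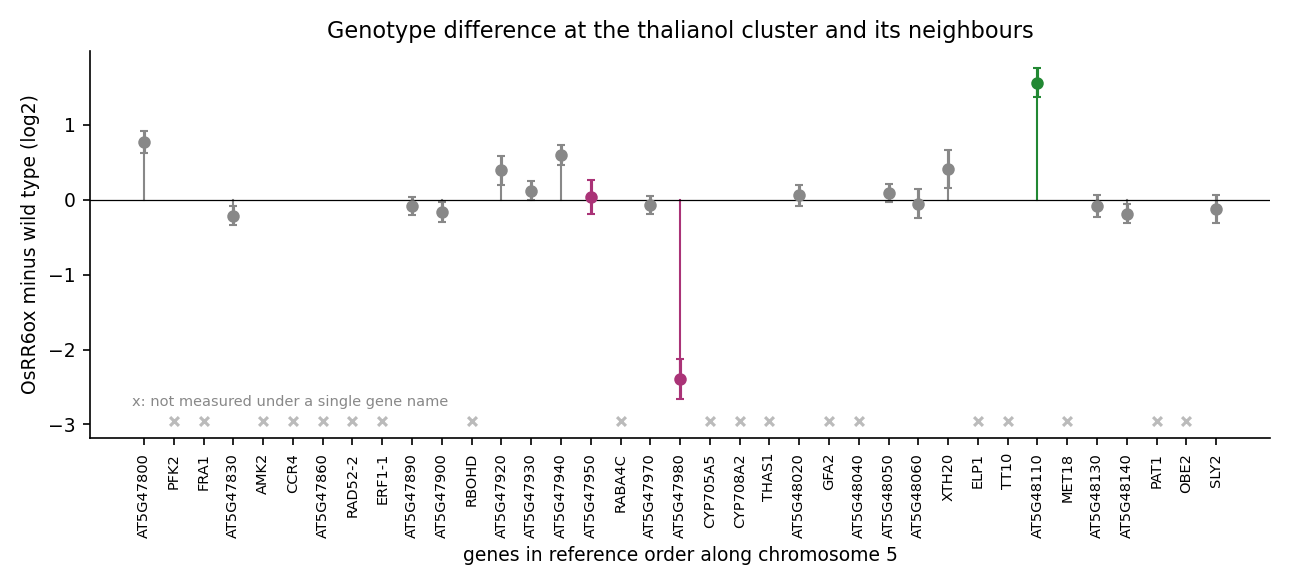
OsRR6ox minus wild type difference (log2) of each protein-coding gene in reference order along chromosome 5, with 15 genes on each side of the stretch from AT5G47950 to THAS1. Points with limma SE bars are measured genes, purple for the acyltransferase genes and green for a neighbour that passed the threshold, and crosses mark genes not measured under a single gene name. AT5G47980 at -2.39 stands between AT5G47970 at -0.07 and the unmeasured P450 genes, and AT5G48110 at 1.56 is the neighbour that rose.

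Further steps of the pathway lie elsewhere in the genome. AT1G66800 encodes a short-chain reductase that is known to act on thalianol intermediates, and it was the single one of 5 pathway partners measured here. The wild type replicates gave 4.71 and 4.46 and the OsRR6ox replicates 5.34 and 5.27 (log2 expression). Wild type replicate 1 was near array background (4.49 on that array) and replicate 2 below it (4.52 on that array). Both OsRR6ox arrays were higher, opposite to AT5G47980, as for 18.1% of all probe sets. The difference of 0.72 did not pass (limma adjusted p = 0.112). Of 17 other triterpene synthesis genes only LUP5, an oxidosqualene cyclase gene, was measured, and it lay at array background on all 4 arrays. In the supply of oxidosqualene and the sterol branch, 3 of 32 genes were measured, of which 1 rose and 0 fell, against 0.813% and 0.488% of all probe sets. Their median difference was 0.41, against -0.04 over all probe sets. The gene that rose was AT1G31910, for phosphomevalonate kinase of the mevalonate route. Its log2 expression was 9.09 and 9.27 (wild type) and 10.60 and 10.91 (OsRR6ox), a difference of 1.57 or 2.97-fold (limma adjusted p = 0.0261). Without OsRR6ox replicate 1 or 2 it no longer passed (limma adjusted p = 0.100 and 0.156). AT3G54250, for mevalonate diphosphate decarboxylase, differed by 0.41 (limma adjusted p = 0.330), and CPI1, a sterol gene, by 0.18 (limma adjusted p = 0.706), from 0.02 to 0.34 with an array left out.

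The BAHD family gave the broadest view around the acyltransferase genes. Of 57 other family members listed, 43 were measured, 11 of them at array background on all 4 arrays. Among the 43, 1 rose and 0 fell, where 0.813% and 0.488% of all probe sets did so (limma adjusted p under 0.05). Before adjustment 10 of the 43 had a p under 0.05, and so did 3407 of the 22746 probe sets. Their differences ran from -1.15 to 3.60. AT5G47980 at -2.39 lay below every other family member measured and AT5G47950 at 0.04 in the middle of the family. These places restate the differences the pair was selected on and are given as a description. As deposited 26 of the 43 had a lower mean in OsRR6ox and 17 a higher one, whereas 5 were lower and 38 higher with the arrays centred on their spike-in controls. Their median was -0.09 as deposited and 0.44 with spike-in centring, which moved that of all probe sets from -0.04 to 0.49. The arrays of the genotypes did not overlap for 23 of the 43 (53.5%, against 46.1% of all probe sets).

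The family member that rose was AT4G15390, with log2 expression of 6.72 and 7.31 (wild type) and 10.74 and 10.48 (OsRR6ox). Both OsRR6ox arrays were far higher, by a mean of 3.60 with a limma SE of 0.23, or 12.1-fold (limma adjusted p = 0.00683). The call was lost without OsRR6ox replicate 1 (limma adjusted p = 0.0624) or replicate 2 (0.0579), at differences of 3.47 and 3.73. Looked up after its value was seen, AT4G15390 lies on chromosome 4 next to CYP705A4, which is followed by BARS1, the gene for baruol synthase. PEN1, the gene for arabidiol synthase, is 5 places away. AT4G15390 is thus, like AT5G47980, a BAHD gene close to a triterpene synthase and a P450 gene of the CYP705A family, and it differed between genotypes in the opposite direction. The 6 protein-coding genes on each side of it were not measured under a single gene name.

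Other family members moved less. AT1G24430 gave 5.95 and 5.59 (wild type) and 4.65 and 4.60 (OsRR6ox), and its difference of -1.15 fell just short of the threshold (limma adjusted p = 0.0554). AT3G29635 differed by -0.60 (limma adjusted p = 0.175) and lay at array background in OsRR6ox. HCT, which makes hydroxycinnamoyl esters on the way to lignin, differed by -0.17 and BAT1, which acylates brassinosteroids, by 0.06, both short of the threshold (limma adjusted p = 0.773 and 0.966). FACT, which makes alkyl caffeates of root waxes, gave 7.66 and 6.58 (wild type) and 6.15 and 6.12 (OsRR6ox), a difference of -0.99 that did not pass (limma adjusted p = 0.297). AT1G78990 gave 6.08 and 4.85 (wild type) and 4.47 and 4.39 (OsRR6ox), a slightly larger difference of -1.03 that did not pass either (limma adjusted p = 0.326). As for the cluster genes, wild type replicate 1 was the higher one for both FACT and AT1G78990. Wild type replicate 1 exceeded replicate 2 by at least as much as for AT5G47950 in 5 of the 43 family members, against 4.39% of all probe sets. It was the higher one in 22 of the 43, against 12491 of all 22746 probe sets.

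**Figure D3:**
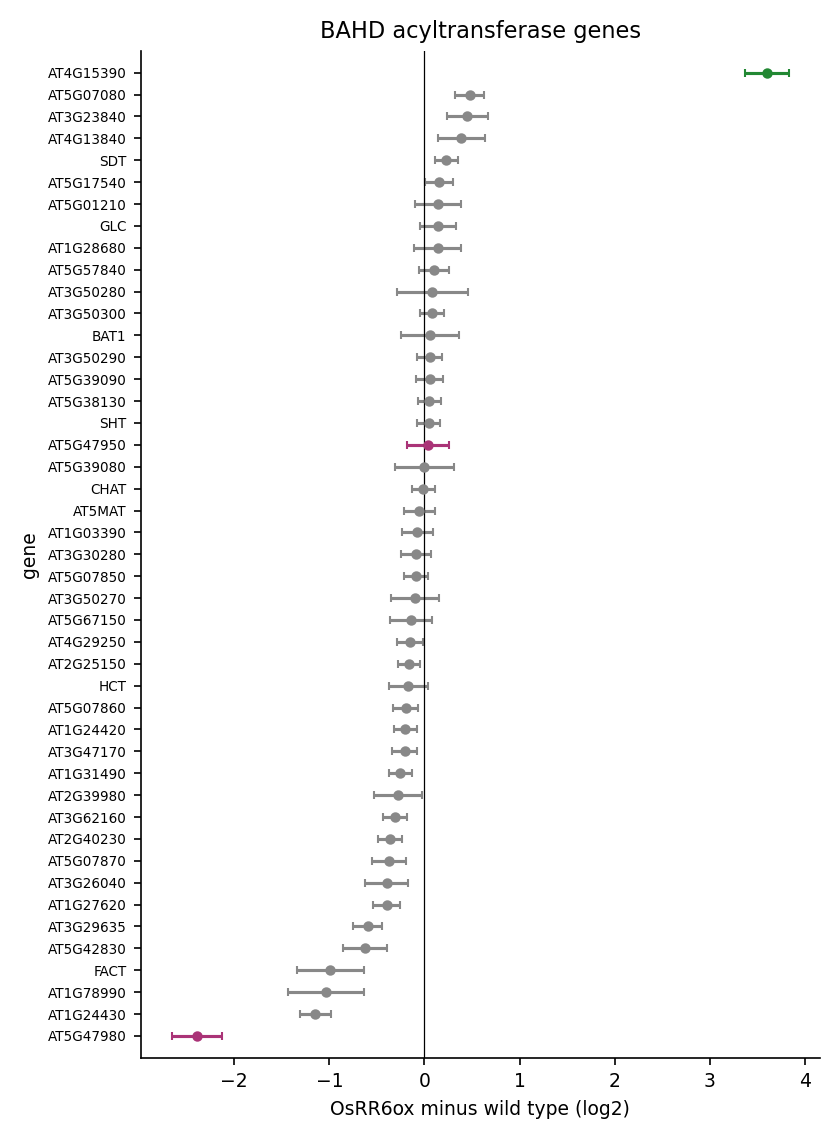
OsRR6ox minus wild type difference (log2) with limma SE bars for AT5G47980 and AT5G47950 (purple) and the 43 other BAHD acyltransferase genes measured, in order of the difference. AT4G15390 (green, 3.60) is the family member that passed the threshold beside AT5G47980 (-2.39), and AT5G47950 (0.04) lies in the middle of the family. The purple genes were selected on this difference, so their places are a description.

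Likeness to each acyltransferase gene was measured as the root-mean-square distance between log2 profiles over the 4 arrays, each profile centred on its own mean, among genes measured under a single name. With 4 arrays a profile holds only the genotype difference and the gaps between replicates, and the former was used to choose AT5G47980. For AT5G47980 the nearest was ndhF, a plastid gene of the NDH complex, at a distance of 0.13, followed by AT1G18980 (0.13), petD (0.14), petN (0.16) and AT5G37990 (0.17). Here petD and petN are plastid genes of the cytochrome b6f complex. Of the 5 genes, petD and AT5G37990 did not pass the threshold (limma adjusted p = 0.0560 and 0.0787). AT1G18980 gave 10.26 and 9.64 (wild type) against 7.56 and 7.81 (OsRR6ox), and AT5G37990 gave 8.49 and 7.32 against 5.61 and 5.64. All 5 were higher in wild type replicate 1 than in replicate 2, as AT5G47980 was, and their genotype differences ran from -2.64 for ndhF to -2.09 for petN. Both traits follow from ranking genes on these same values. As ndhF lay at array background on both OsRR6ox arrays, the size of its difference is uncertain and its distance rests on values at that level. The most like genes of AT5G47950 were nearer still, at distances of 0.01 for AT3G59670, 0.02 for AT1G04990 and 0.03 for AT5G16110, AT2G28360 and AT1G51340. Their genotype differences ran from 0.02 to 0.07, which also follows from the ranking. No gene was among the 5 nearest of both acyltransferase genes, which was fixed by the unlike genotype differences of the pair.

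**Figure D4:**
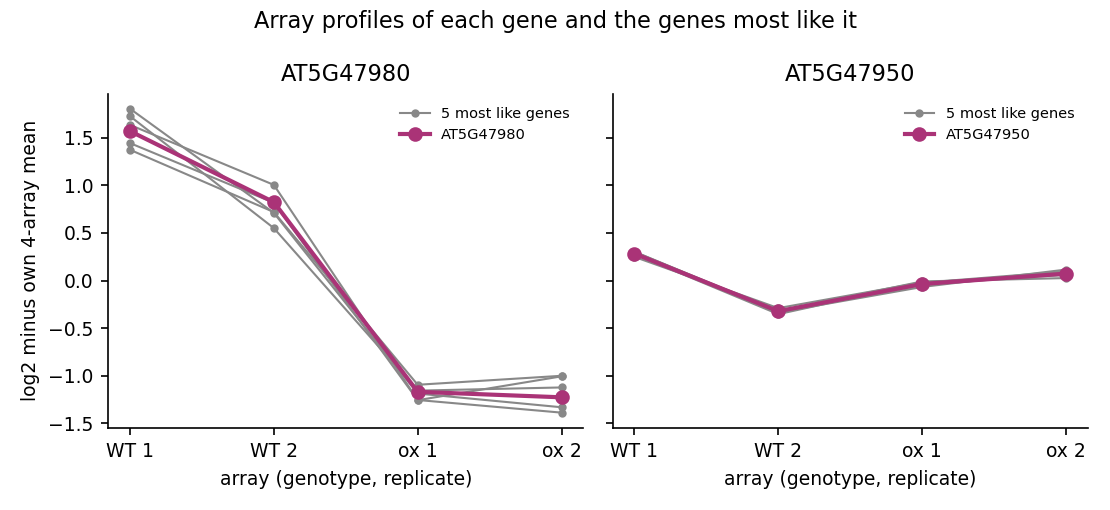
Log2 expression minus each gene's own mean over the 4 arrays, for AT5G47980 (left) and AT5G47950 (right) in purple and for the 5 genes with the most like profile in grey, by array (WT, wild type; ox, OsRR6ox; replicates 1 and 2). The AT5G47980 profile steps down from wild type replicate 1 to replicate 2 and further to both OsRR6ox arrays, whereas that of AT5G47950 is lowest on wild type replicate 2.

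As thalianol genes are known from roots, markers of roots and green tissue were read beside these values. Of 16 root hair and root epidermis markers 2 were measured. Both were higher on each OsRR6ox array, opposite to AT5G47980, as were 18.1% of all probe sets. Of these 2 markers 1 rose past the threshold, where 0.813% of all probe sets did. EXPA7, for a wall-loosening protein of growing root hairs, rose by 1.39, from 7.18 and 6.96 to 8.30 and 8.63 (limma adjusted p = 0.0392). The EXPA7 call was lost without wild type replicate 2 or either OsRR6ox replicate, at limma adjusted p = 0.0565, 0.128 and 0.200. EXPA18, for another expansin, differed by 1.11 without passing (limma adjusted p = 0.103). Of 27 other root markers 3 were measured and 0 passed, where 1.30% of all probe sets did and 3407 of 22746 had an unadjusted p under 0.05. They were AT1G62500 of the root cortex at 0.69, PYK10, a glucosidase of root endoplasmic reticulum bodies, at -0.21, and NAI1, which controls these bodies, at -0.19 (limma adjusted p = 0.137, 0.519 and 0.646). With an array left out NAI1 ranged from -0.36 to -0.03. PYK10 and NAI1 turned positive when arrays were centred on spike-in controls. Before adjustment AT1G62500 was the 1 of these 3 with a p under 0.05.

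Of 18 green tissue markers 3 were measured, all antenna genes of photosystem II. LHCB4.3 fell by 1.41 (limma adjusted p = 0.0257, and 0.155 and 0.179 without OsRR6ox replicate 1 and 2), while LHCB4.2 differed by 1.20 (0.0705) and LHCB4.1 by 0.17 (0.641). The part that organ proportions have in the AT5G47980 values was not tested. The Arabidopsis type-A response regulators RR16 and ARR15, the 2 of 10 measured, differed by -0.39 and -0.15 as deposited, with limma adjusted p = 0.362 and 0.805, and by 0.14 and 0.37 with spike-in centring. ARR15 lay at array background on both OsRR6ox arrays and on wild type replicate 1, so its differences rest on dim values. Of the 13 chromatin genes listed (Polycomb and histone H2A.Z factors, known from other work to act at this kind of cluster) 0 were measured under a single gene name.

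**Figure D5:**
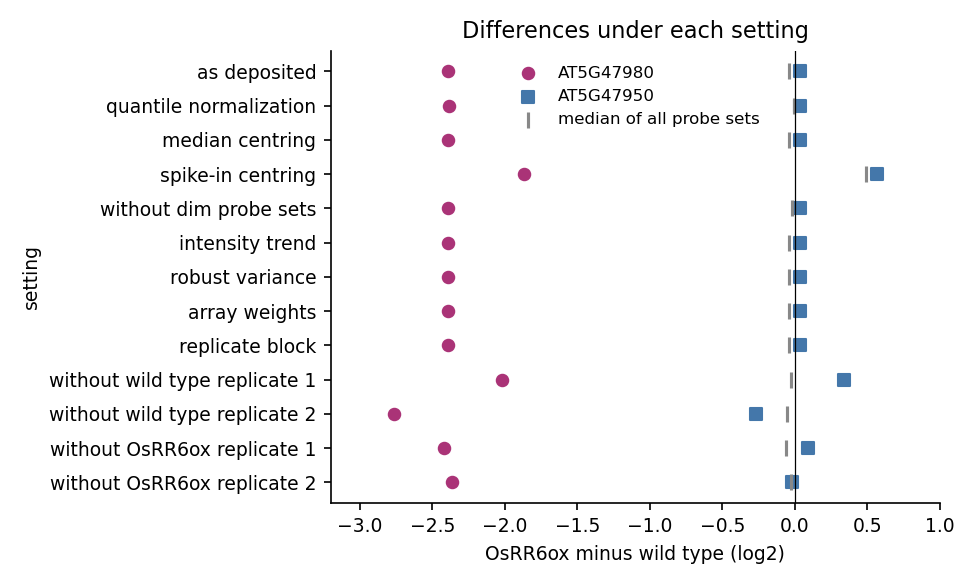
OsRR6ox minus wild type difference (log2) of AT5G47980 (circles) and AT5G47950 (squares) as deposited and under each of 12 alternative settings, with the median of all probe sets (grey ticks). AT5G47980 stays between -2.77 and -1.87 and AT5G47950 between -0.26 and 0.57, and spike-in centring shifts both together with the median of all probe sets. Several settings alter only the variance model or the probe sets tested and cannot move the differences.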

How the data were processed

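The authors deposited log2 expression values for 22810 probe sets on 4 arrays. Per the submitters' processing notes R 3.4.0 was used, and no source used here states how background correction, summarisation and normalization were done. Biotin-labelled RNA was made from total RNA with the Affymetrix 3′ IVT protocol, per the labels' protocols. The 64 array controls stayed out of the tests. Of the other 22746 probe sets, 13513 have a single gene in the platform annotation, 503 several and 8730 none, and 13436 of the first matched the TAIR10.1 reference table by gene ID.

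Genotypes were compared in limma 3.58.1 under R 4.3.3 (lmFit, eBayes, two-sided, Benjamini-Hochberg over 22746 probe sets, threshold 0.05). A run on simulated data used independent noise drawn from the fit's own variance model, so it could not test shared replicate effects. The replicates are labelled as biological, but separate growth is not stated, so the p-values cover only the spread among these samples. The number of arrays limits the precision.

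The acyltransferase genes, the 10 gene lists and all tests were chosen with earlier results of these data known. A gene with several probe sets stands by its brightest. Named were passing pathway, triterpene and neighbouring genes, up to 3 of each other list with the smallest p and the 5 most like genes. Other genes were singled out after their values were seen, namely AT5G47970, AT5G48020, AT5G47940, AT5G47830, AT1G66800, LUP5, HCT, BAT1, FACT and AT1G78990. No sequences were used here.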

Additional observations from a re-analysis of the deposited data

How the results depend on the processing

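AT5G47980 stayed lower in OsRR6ox under all 12 alternatives, from -2.77 to -2.02 with an array left out and at -1.87 with spike-in centring, which put the median over all probe sets at 0.49. Relative to that median it was -2.35, as with the deposited values, which is fixed because such centring shifts all probe sets of an array alike. Leaving out dim probe sets, the intensity trend, robust variance, array weights and the replicate block cannot move this difference, which stayed -2.39. The AT5G47980 call held in 9 of the 12 alternatives. It was lost with the replicate number as a block and without either OsRR6ox array. AT5G47950 ranged from -0.26 to 0.34 with an array left out and stood at 0.57 with spike-in centring, 0.08 above the median, and it passed in none. The 296 calls became 492 with median centring, 3013 with spike-in centring (2863 rising, against 185), 465 without wild type replicate 2 (217 rising, so that falls outnumbered rises), and 51 and 45 without OsRR6ox replicate 1 and 2. Rises made up 72.4% of the 105 calls with the replicate block. Deviations of same-numbered arrays correlated at 0.26, which with 2 replicates does not show that the numbers pair the samples. With the block EXPA7, AT1G31910, LHCB4.3 and AT5G48110 no longer passed, while AT4G15390 did. Spike-in centring reversed ARR15 (0.37), RR16 (0.14), PYK10 (0.32) and NAI1 (0.33). With an array left out ARR15 ranged from -0.38 to 0.073. AT1G66800 passed with spike-in centring, and AT1G24430 in 6 alternatives. For BAHD genes the count past the threshold, 1 as deposited, ran from 0 without either OsRR6ox array to 4 with spike-in centring or without wild type replicate 2. The causes were not tested.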
